A study of Mus musculus with 8 samples.

Results

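The 23 genes described here are interleukins and interleukin receptors of a NanoString nCounter mouse panel, which counts barcoded probes hybridised to RNA without amplification. They were chosen by name, as the gene rows whose symbol starts with Il and a digit, without 12 rows of the interleukin 1 and 18 axis and of a few other cytokines that the rule leaves out. That gave 23 of 35 such rows and of 754 gene rows in all. Of the 23, 13 encode ligands or ligand subunits and 9 encode receptor chains. The remaining gene, Il4i1, carries an interleukin name but encodes a secreted L-amino acid oxidase. The question addressed by the design is whether NR0B2, an orphan nuclear receptor that acts as a corepressor, plays a part in breast cancer spread through myeloid cells.

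The comparison is of 4 DSHN with 4 DMSO samples. DSHN samples came from Balb/c mice that carried a graft of 4T1, a mammary carcinoma line of the mouse known to colonise the lung, and were treated with DSHN, an NR0B2 agonist, at 10 mg/kg daily for 7 days from day 10 after the graft. DMSO samples came from equally grafted mice given DMSO as placebo on the same schedule. Each sample was a pool of lungs from 3 mice of 1 group, with 24 mice in all, so samples are separate animals. Cells were taken with CD11b and CD11c beads, and the labels call them dendritic cells. The labels used here give no age or sex.

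Interleukins are secreted signals that bind receptors built from a ligand-binding chain and chains shared between several cytokines. Most of the receptors here pass the signal through JAK kinases and STAT transcription factors, whereas the IL-17 and IL-1 families use adaptor proteins that lead to NF-kB. Myeloid cells of the lung are known both as producers of IL-6, IL-12 and IL-23 and as responders to IL-4, IL-10 and IL-17, while IL-2, IL-5 and IL-9 are known mainly as lymphocyte products.

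The samples differed in depth. Recovered counts summed over the genes were 123756 in DSHN 1 and 533075 to 617624 in the other DSHN samples, against 598261 to 923210 in DMSO samples. DSHN 1 stood apart in several measures, so results that lean on it are also given without it. DMSO 1 stood apart in the factor per sample that deposited gene values carry, 6.83 against 0.604 to 1.17 in the other samples. Some differences are therefore also given without DMSO 1, or without both samples. The isolated cells carried abundant transcripts of neutrophil markers: 6 such markers made up 13.3 to 23.0% of gene counts in DSHN and 13.8 to 23.8% in DMSO, and all 6 lay above background in every sample. Most of that share came from S100a8 and S100a9. On the housekeeping scale described below, their mean log2 levels in DSHN were 15.9 and 15.6, against 10.5 for Csf3r, the next highest. The share thus mainly follows these genes and is no measure of neutrophil content. Monocyte and macrophage markers made up 1.41 to 2.07% in DSHN and 1.51 to 2.13% in DMSO, and dendritic cell markers 0.485 to 0.700% in DSHN and 0.341 to 0.832% in DMSO. Of the 8 dendritic cell markers in the panel, 2 lay above background in all 8 samples and Xcr1 in none. Eosinophil markers made up 0.120 to 0.344% in DSHN and 0.0340 to 0.253% in DMSO, with Epx below background throughout. The lists for T, NK, B and epithelial cells held 1 gene each here. Together with those for innate lymphoid and mast cells and for endothelial and stromal cells, each list stayed at or under 0.0995% in DSHN and 0.0459% in DMSO. The T cell gene, Cd247, made up 0.00552 to 0.0282% in DSHN and 0.00165 to 0.00512% in DMSO, without overlap. In limma, Cd247 and 2 of 4 endothelial and stromal genes tested had unadjusted p under 0.05, beside 3.61% of all genes, and 0 passed adjustment. Both lists were highest in DSHN 1, where background is a larger part of the counts. In pooled bulk RNA, fewer cells of a type and less RNA per cell cannot be told apart.

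Detection was set by the 8 negative-control probes (NEG): a gene was above background in a sample if its count was over their mean plus 2 SD. That limit was 17.9 to 40.1 counts in DSHN, highest in DSHN 1, and 21.0 to 26.9 counts in DMSO. By this measure the genes chosen here split by role. Receptors were detected broadly, with 5 of 9 above background in all 8 samples, whereas 1 of 13 ligands was. The split describes the chosen genes only. Among the rows left out, the ligand genes Il1a, Il1b, Il1rn and Il18 were above background in all 8 samples, and Il10, Il13 and Il15 were not. Of the receptor genes left out, Il1r2 was above it in all 8 samples, and Il1r1, Il1rl1, Il18r1 and Il3ra were not. Of the whole panel, 291 of 754 genes (38.6%) reached all 8 samples. Without DSHN 1, which has the highest limit, 6 chosen receptors and 2 chosen ligands were above background in all 7 remaining samples. Il21r and Il12b were those added. Of the panel, 464 genes (61.5%) were above it in these samples. DSHN samples had 6, 7, 8 and 7 receptors and 1, 3, 5 and 4 ligands above background, and every DMSO sample had 7 receptors, with 3, 4, 3 and 2 ligands. The number of members detected averaged 10.3 ± 2.50 in DSHN and 10.3 ± 0.96 in DMSO (SD, n = 4 each), so the groups differed by 0 (p = 1, exact two-sided permutation over 70 assignments). The difference was 0.25 for ligands and 0 for receptors, with p = 1 for both in the same exact permutation test, where the smallest p possible is 0.0286. The equal averages rested on DSHN 1. Without it DSHN averaged 11.3 ± 1.53 members (SD, n = 3) and DMSO 10.3 ± 0.96 (SD, n = 4), a difference of 1.08 (p = 0.457, exact two-sided permutation over 35 assignments), and the difference was 1 for ligands (exact p = 0.286) and 0.333 for receptors (exact p = 0.429). Receptors made up 0.408 to 0.530% of all gene counts in DSHN and 0.357 to 0.502% in DMSO. Ligands made up 0.0863 to 0.174% in DSHN, with the highest share in DSHN 1, where background is a larger part of the counts, and 0.0570 to 0.0881% in DMSO.

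**Figure D1:**
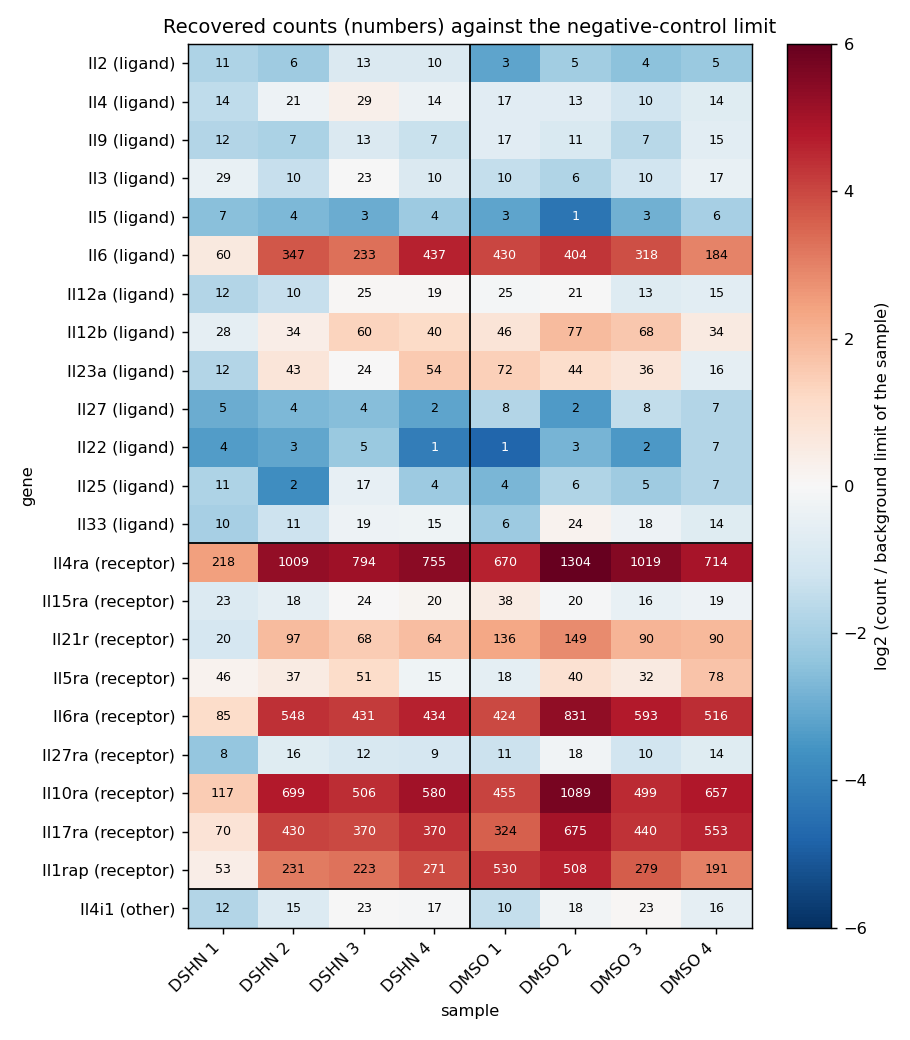
Recovered counts of the 23 genes (rows, ligands above receptors) in each sample (columns, DSHN left of DMSO), with each cell coloured by the log2 ratio of the count to that sample's background limit. Il4ra, Il6ra, Il10ra, Il17ra, Il1rap and Il6 are above the limit in all 8 samples, and most ligands are below it.

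Among the chosen ligands, Il6 was the one above background everywhere. It encodes IL-6, an inflammatory cytokine of the acute phase response. Il12b, which encodes the subunit shared by IL-12 and IL-23, was above background in 3 of 4 DSHN and 4 of 4 DMSO samples. Il23a, the subunit particular to IL-23, was above it in 3 of 4 samples of each group. The promoters of Il6 and Il12b are shown because these ligands were detected in at least 7 samples and could be matched to a RefSeq promoter, as 17 of the 23 members could. Both are the 250 bases before the annotated start on the plus strand of GRCm38.p6, 5′ to 3′, for Il6 at chr5:30012864-30013113 and for Il12b at chr11:44399813-44400062. Capitals mark matches, on either strand, to the kappaB consensus bound by NF-kB, to TGANTCA (AP-1), to TTNNGNAA (C/EBP) and to TATAA (TATA box).
Il6: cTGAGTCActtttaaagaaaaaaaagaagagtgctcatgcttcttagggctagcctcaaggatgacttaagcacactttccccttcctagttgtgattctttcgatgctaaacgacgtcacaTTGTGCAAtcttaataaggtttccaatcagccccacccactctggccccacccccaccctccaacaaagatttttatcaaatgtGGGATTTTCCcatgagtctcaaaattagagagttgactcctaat
Il12b: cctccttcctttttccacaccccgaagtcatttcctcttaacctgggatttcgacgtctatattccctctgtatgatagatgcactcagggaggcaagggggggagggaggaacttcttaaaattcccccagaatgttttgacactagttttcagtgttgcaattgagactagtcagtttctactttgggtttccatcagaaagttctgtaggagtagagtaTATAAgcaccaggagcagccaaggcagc
The Il6 window held a kappaB match 44 to 35 bases before the start, a C/EBP match 128 to 121 bases before it and an AP-1 match, which reads the same on both strands, 249 to 243 bases before it. The Il12b window held a TATAA match 28 to 24 bases before the start and no exact match to the other patterns. None of these matches overlapped another. Of 32851 promoter windows of the same length, 7.25% held the kappaB consensus, 6.75% TGANTCA, 36.8% TTNNGNAA and 22.8% TATAA on either strand. A match describes the letters and not a bound site, and a site with other letters would not be marked.

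For levels, each sample's log2 values were scaled to the mean of Oaz1, Ppia, Rpl19 and Tubb5, 4 housekeeping genes, and differences are DSHN minus DMSO in log2 units on that scale. Each gene's difference in the deposited values is the same with -1.90 added, the shift of the housekeeping mean. That mean was 7.86 to 10.84 in DSHN and 10.98 to 13.37 in DMSO, without overlap (exact two-sided permutation p = 0.0286, the smallest possible). The scaling thus differed with the group. Deposited gene values also carry a factor per sample, which was 6.83 in DMSO 1 and 0.604 to 1.17 in the other samples. The separation is therefore one of deposited values, and housekeeping counts without that factor were not tested. Of the 4 scaling genes, Tubb5 lay apart from the others, at 0.51 ± 0.32 on this scale (unadjusted p = 0.137, adjusted p = 0.925 in limma) beside -0.21 for Oaz1, -0.13 for Ppia and -0.17 for Rpl19. Since each of the 4 helps set this scale, these values offset one another by construction. The p of Tubb5 thus does not test whether its level differs with treatment. Leaving Tubb5 out of the scaling moves every difference up by the same amount. No member was called higher or lower. The fit covered the 554 genes whose deposited value reached 20 in 4 samples or more. Of these 11 were members, while 12 members did not reach it. The 11 comprised 3 ligands and 8 receptors, and 0 passed limma with Benjamini-Hochberg adjustment at 0.05 (adjusted p = 0.925 for each), as did 0% of all genes tested. At an unadjusted p under 0.05 there were 0 of 11 members, where 3.61% of all genes fell. Exact permutation of each gene also found 0 members at that threshold, and 18 of all genes tested. Its smallest possible p, 0.0286, could pass adjustment only if most of the 554 genes reached it. That it found 0 members after adjustment was thus close to fixed in advance. Groups overlapped for all 11 members, whereas 3.25% of all genes did not overlap. With 4 samples per group these are the 18 genes of the permutation test, since its p of 0.0286 requires complete separation. Both counts thus give the same result. The DSHN mean was higher for 7 members and lower for 4. Their median difference was 0.24, beside 53.4% of all genes higher and a median of 0.03. Without DSHN 1 the members' median was -0.039, with 5 of 11 higher. It was 0.41, with 9 of 11 higher, when Tubb5 was not used for scaling. All 3 tested ligands and 4 of 8 receptors had a higher mean, with medians of 0.34 and 0.005, although all 11 were lower in the deposited values, and Il6 without DMSO 4 and Il12b without DSHN 1 turned in sign. The low-value filter acts on deposited values, which ran higher in DMSO, so a member could pass through DMSO samples alone.

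Il6 had levels of 8.28, 8.28, 8.06 and 8.90 in DSHN 1 to 4, against 9.11, 8.04, 8.01 and 7.41 in DMSO 1 to 4. The DMSO samples held both the highest and the lowest value, and the DSHN samples lay between them. The difference was 0.24 ± 0.35 (SE), a fold of 1.18 with a 95% interval of 0.681 to 2.05. It moved with single DMSO samples, to 0.56 without DMSO 1 (unadjusted p = 0.0460, adjusted p = 0.899 in limma) and to -0.0058 without DMSO 4, and was 0.41 when scaled without Tubb5. With background subtracted the difference was 0.15, and the DSHN 1 level came from 60 counts against a limit of 40.1. The adjusted p of Il6 ranged from 0.148 to 1 over all settings tried.

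Il12b had levels of 7.18, 4.93, 6.10 and 5.45 in DSHN, the first of them under background, against 5.89, 5.65, 5.78 and 4.98 in DMSO. The highest DSHN value was thus a count of 28 in the shallowest sample, under its limit of 40.1. The difference of 0.34 ± 0.48 was -0.080 without DSHN 1 and was 0.05 with background subtracted. Il23a had levels of 5.96, 5.27, 4.78 and 5.88 in DSHN, again with DSHN 1 under background, against 6.53, 4.84, 4.87 and 3.89 in DMSO, where DMSO 4 was under it. Like Il6, Il23a was highest in DMSO 1 and lowest in DMSO 4. Its difference was 0.44 ± 0.55, with 0.06 without DMSO 4, 0.94 without DMSO 1 and 0.07 with background subtracted.

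The other 10 ligands were at or near background. Il12a, the subunit that pairs with the Il12b product to form IL-12, was above background in 2 DSHN and 0 DMSO samples, with counts of 12, 10, 25 and 19 in DSHN and 25, 21, 13 and 15 in DMSO. Il4, the type 2 cytokine IL-4, was above it in 1 DSHN sample, with 29 counts in DSHN 3, and in 0 DMSO samples. Il33, an alarmin of epithelial and stromal cells, was above it in 0 DSHN samples and in 1 DMSO sample, with 24 counts in DMSO 2. Above background in 0 of 8 samples were Il2, a T cell growth factor, Il3, a growth factor of basophils and mast cells, Il5, which sustains eosinophils, and Il9, a type 2 cytokine. The same held for Il22, which acts on epithelium, Il25, a member of the IL-17 family tied to type 2 responses, and Il27, a subunit of IL-27. For these genes no difference is given gene by gene, since a level at background has no size that can be compared.

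On the housekeeping scale such genes had higher values in DSHN 1, and so had the negative controls. The 8 members above background in no sample had a median level of 5.60 in DSHN 1 and 2.13 to 3.84 in DSHN 2 to 4, against 1.83 to 2.86 in DMSO. The mean of the negative controls, put on the same scale, was 6.42 in DSHN 1 and 3.23 to 3.91 in DSHN 2 to 4, against 2.55 to 3.69 in DMSO. In counts the negative controls averaged 16.6 in DSHN 1 and 8.63 to 13.1 in the other DSHN samples, against 8.25 to 14.0 in DMSO. For all 13 members above background in under 4 samples the scaled DSHN mean was the higher one. Their median difference was 0.83, and the median was 0.18 without DSHN 1 and 0.35 without DSHN 1 and DMSO 1. It describes the scaled background and is not a size for any gene. The negative controls themselves differed by 1.13 on this scale (4.25 ± 1.48 in DSHN and 3.12 ± 0.52 in DMSO, SD, n = 4 each, exact two-sided permutation p = 0.143).

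**Figure D2:**
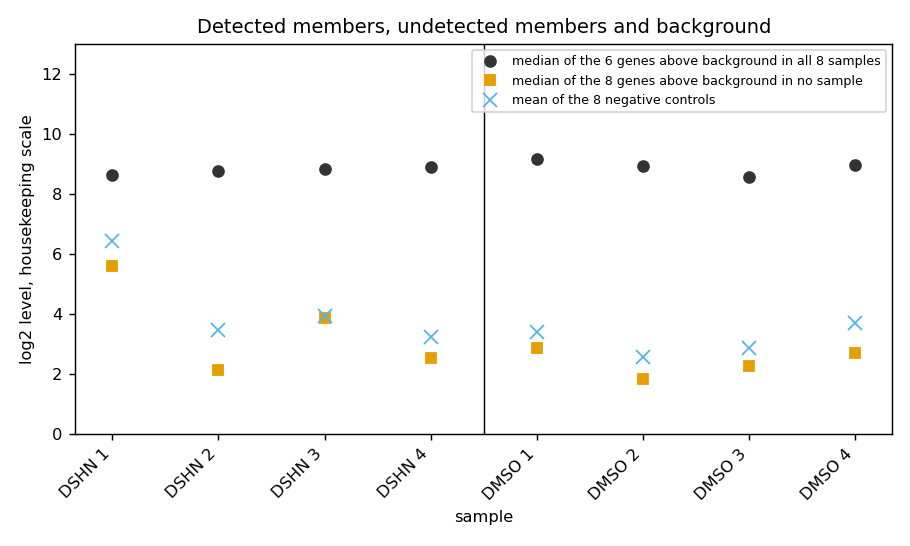
Log2 levels on the housekeeping scale in each sample (DSHN left of DMSO) of the median of the 6 members above background in all 8 samples, of the median of the 8 members above it in none, and of the mean of the 8 negative controls. In DSHN 1 the undetected members (5.60) and the negative controls (6.42) both lie above every other sample, while the detected members (8.64) do not.

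The chosen receptors with a level in every sample were those for IL-6, IL-4 and IL-13, IL-10, the IL-17 family, and the co-receptor of IL-1 and IL-33. Il6ra, the ligand-binding chain for IL-6, had levels of 8.78, 8.94, 8.95 and 8.89 in DSHN, against 9.09, 9.08, 8.91 and 8.90 in DMSO. All 8 values lay close together and the groups overlapped. The difference was -0.10 ± 0.17, a fold of 0.931 with a 95% interval of 0.714 to 1.21, and 0.0675 when Tubb5 was not used for scaling. Its SD within groups, 0.093, was the smallest of the 287 genes above background in every sample (housekeeping genes not counted), whose median SD was 0.41. The rank depended on the scaling: 29 of the 287 genes had a smaller SD after median centring and 11 with Tubb5 left out.

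Il17ra, the chain shared by receptors of the IL-17 family, had levels of 8.50, 8.59, 8.73 and 8.66 in DSHN, against 8.70, 8.78, 8.48 and 8.996 in DMSO. The groups overlapped, and the within-group SD of 0.17 was larger than that of 8 of the 287 genes. That rank too depended on the setting, with 88 genes smaller after median centring, 88 without DSHN 1 and DMSO 1, and 54 with Tubb5 left out. The difference was -0.12 ± 0.19, a fold of 0.921 with an interval of 0.688 to 1.23, and 0.0525 with Tubb5 left out. With background subtracted it was -0.20, and the DSHN 1 level came from 70 counts against a limit of 40.1. Il10ra, the ligand-binding chain for the inhibitory cytokine IL-10, had levels of 9.24, 9.29, 9.18 and 9.31 in DSHN, against 9.19, 9.47, 8.66 and 9.25 in DMSO. DMSO 3 was the low sample, and the difference of 0.11 ± 0.21 (fold 1.08, interval 0.779 to 1.504) was -0.047 without it and 0.285 with Tubb5 left out. Its within-group SD of 0.25 was larger than that of 54 of the 287 genes. That rank moved to 77 genes after median centring and 83 with Tubb5 left out. It was 89 without DSHN 1 and 187 without DSHN 1 and DMSO 1.

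Il4ra, the chain shared by the receptors for IL-4 and IL-13, had levels of 10.14, 9.82, 9.83 and 9.69 in DSHN, against 9.75, 9.73, 9.69 and 9.37 in DMSO. Of the 4 DSHN samples, 3 lay above every DMSO sample and DSHN 4 lay among them. The difference of 0.24 ± 0.19 (fold 1.18, interval 0.876 to 1.58) had the smallest unadjusted p of the members, 0.245, and adjusted p = 0.925 in limma. It stayed between 0.15 and 0.30 when any 1 sample was left out, was 0.41 with Tubb5 left out (unadjusted p = 0.0617) and was -1.67 in the deposited values. Its within-group SD of 0.18 was larger than that of 13 of the 287 genes, and of 63 with Tubb5 left out.

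Il1rap, the co-receptor for IL-1, IL-33 and IL-36, had levels of 8.10, 7.69, 8.003 and 8.21 in DSHN, against 9.41, 8.37, 7.82 and 7.47 in DMSO. As for Il6, the DMSO samples spanned the DSHN samples on both sides, with DMSO 1 highest and DMSO 4 lowest. The difference of -0.27 ± 0.38 (fold 0.831, interval 0.458 to 1.51) was 0.115 without DMSO 1 and 0.0825 without DSHN 1 and DMSO 1. With background subtracted it was -0.39, and the DSHN 1 level came from 53 counts against a limit of 40.1. Neutrophil markers, mostly S100a8 and S100a9, made up 23.8, 13.8, 18.5 and 17.0% of gene counts in DMSO 1 to 4. Their part in the spread of Il1rap and Il6 was not tested. DMSO 1 also had the largest factor per sample, 6.83, and the part of that factor was not tested either. Il21r, the receptor for the T cell cytokine IL-21, was above background in 3 of 4 DSHN and 4 of 4 DMSO samples. Its levels were 6.70, 6.44, 6.28 and 6.13 in DSHN, with DSHN 1 under background, against 7.45, 6.60, 6.19 and 6.38 in DMSO. DMSO 1 was again the highest, and the difference of -0.27 ± 0.31 was -0.00083 without it and -0.92 with background subtracted.

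Il5ra, the IL-5 receptor chain known from eosinophils, varied most among the receptors described. It was above background in 3 of 4 samples of each group, with counts of 46, 37, 51 and 15 in DSHN and 18, 40, 32 and 78 in DMSO. Levels were 7.90, 5.05, 5.87 and 4.04 in DSHN, against 4.53, 4.70, 4.70 and 6.18 in DMSO. The difference of 0.69 ± 0.76 was -0.039 without DSHN 1 and -0.20 without DSHN 1 and DMSO 1. Prg2, an eosinophil granule protein, was at 10.44, 8.51, 9.92 and 8.82 in DSHN and 7.58, 8.88, 9.21 and 9.53 in DMSO. Both genes were thus highest in DSHN 1 among DSHN samples and in DMSO 4 among DMSO samples. The Il5ra level in DSHN 1 rested on 46 counts, close to that sample's limit of 40.1, while Prg2 had 268 counts there. With background subtracted the Il5ra difference was 0.49. The part of eosinophil content in Il5ra was not tested. Il15ra, which presents IL-15 to lymphocytes, was above background in 2 DSHN samples and 1 DMSO sample, and Il27ra, the receptor for IL-27, in 0 of 8. Il4i1 was above background in 0 DSHN samples and 1 DMSO sample, with 10 to 23 counts in all 8.

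**Figure D3:**
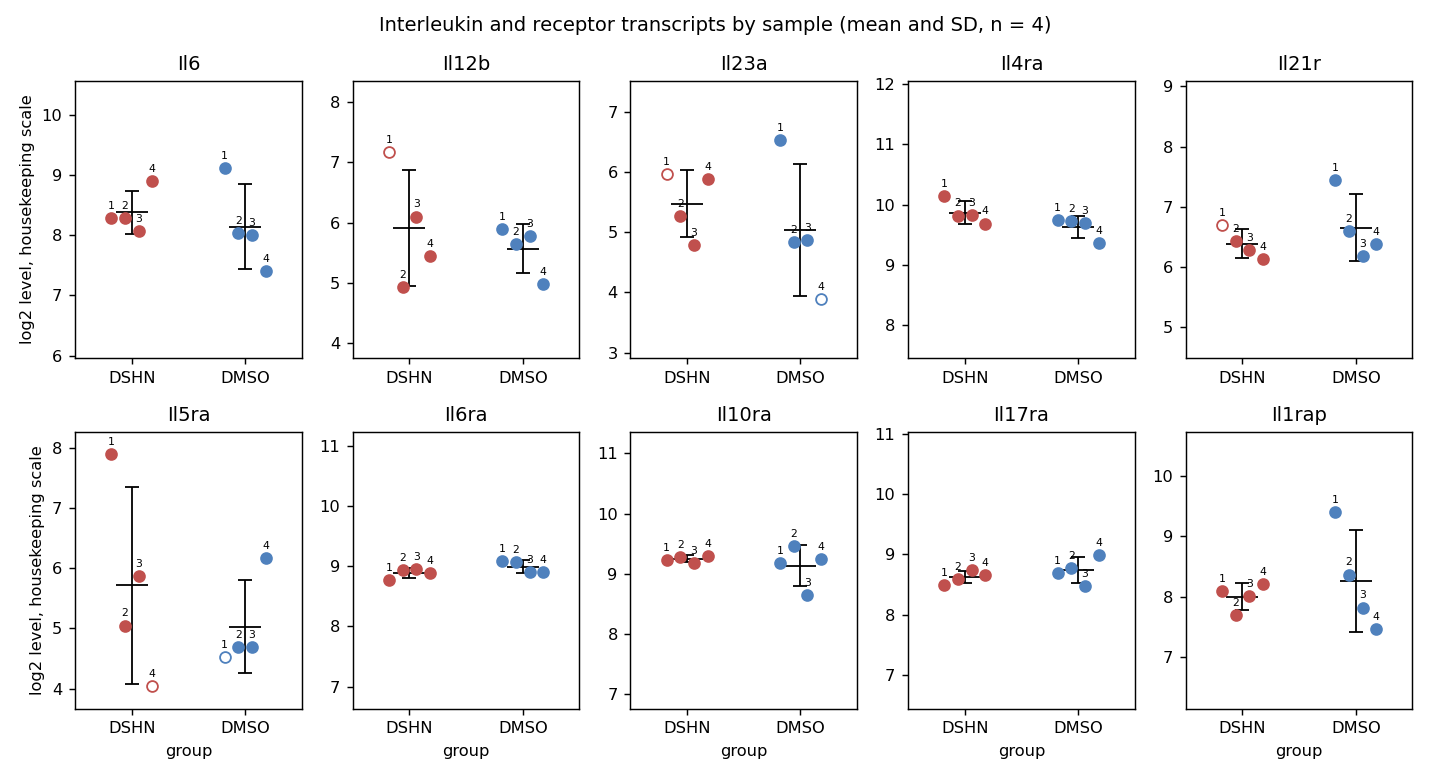
Log2 levels on the housekeeping scale of the 10 members above background in at least 2 samples of each group, with DSHN left of DMSO. Each point is a sample with its replicate number, open where it is below background, bars are mean and SD (n = 4), and all panels span the same number of log2 units; Il6ra, Il17ra and Il4ra are the tightest on this scale, while Il5ra, Il12b and Il23a are spread.

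**Figure D4:**
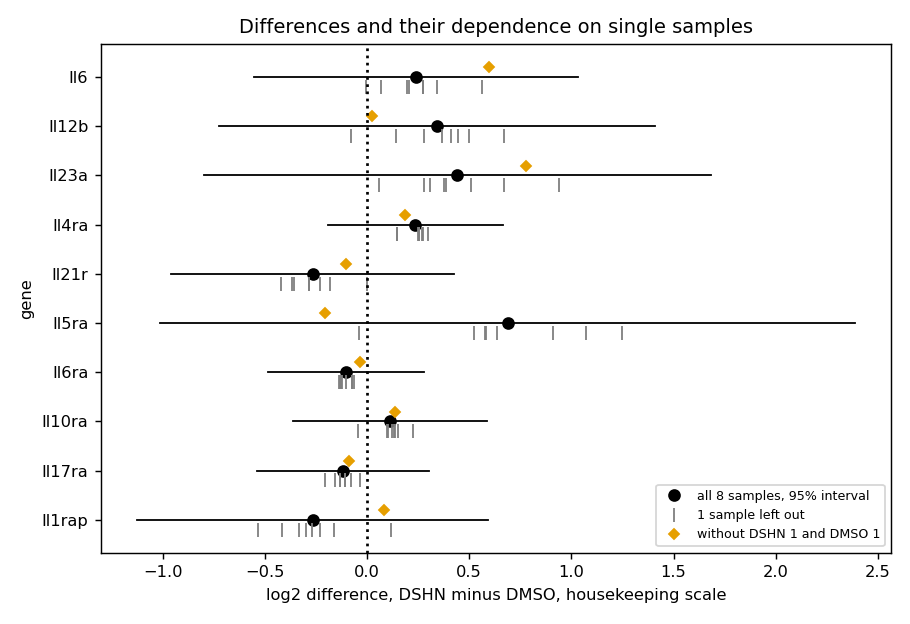
Log2 difference, DSHN minus DMSO, of the same 10 genes (black points, 95% interval from limma), with the value when 1 sample is left out (grey ticks) and without DSHN 1 and DMSO 1 (orange). All 10 intervals include 0, and the interval of Il5ra, from -1.01 to 2.39, is the widest.

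Of a list of 32 genes that act with interleukin receptors or belong to related cytokines, the panel held 15, namely the kinase gene Jak3, STAT genes, SOCS feedback inhibitors, the adaptors Traf6 and Myd88, the repressor Bcl6 and the cytokines Lif and Osm. Of these, 14 were tested. The DSHN mean was higher for 7 of these and lower for 7, and the median of their differences was 0.01. At the thresholds used, 0 passed at an unadjusted p under 0.05 or after adjustment, beside 3.61% and 0% of all genes. Those with the smallest p were Osm, an IL-6 family cytokine, at -0.40 ± 0.21, and Stat3, which carries IL-6 and IL-10 signals, at -0.31 ± 0.22. Both had adjusted p = 0.925 in limma, and without DSHN 1 and DMSO 1 the differences were -0.19 and -0.071.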

How the data were processed

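The authors deposited 768 probes in 8 samples on a log2 scale with 2 decimals: 754 genes, 6 positive and 8 negative controls. The sources used here do not give the software. In the deposited log2 values, control probes are unscaled counts and genes carry a factor per sample (0.604 to 6.83), found from 5 positive controls and refined on the steps of values under 40 counts, which were whole within 0.0062 on the log2 scale. The factor was 6.83 in DMSO 1 and 0.604 to 1.17 in the other samples. Recovered counts are rounded for bright genes. Their number limits the precision, most in DSHN 1.

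Log2 values minus the mean of Oaz1, Ppia, Rpl19 and Tubb5, with 10.96 added back, were fitted with limma 3.58.1 in R 4.3.3 (variance trend, DSHN against DMSO, 554 genes at 20 or more in at least 4 samples, Benjamini-Hochberg at 0.05). This takes the 4 genes as unaffected by treatment, although Tubb5 lay apart from the other 3. The code was tested on simulated data. No pseudocount was needed on log values. Members and lists were chosen with earlier results of these data known. Differences are given for members above background in all 8 samples, and for up to 6 others per direction above it in at least 2 samples of each group. From the partner genes up to 3 were named by p, of which 1 is not reported here, and cell type markers are given by list. Alternatives were other scalings, filters, variance models, background subtraction, an exact permutation test per gene, a replicate block and leaving out samples. Promoters are RefSeq's (GRCm38.p6), and all 23 symbols matched its gene table.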

Additional observations from a re-analysis of the deposited data

Results flagged for a closer look

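In 28 sets of 4 samples tested for a value far from the others, 4 held one, where chance gives about 1 in 20. Within DSHN, DSHN 1 had the lowest deposited housekeeping mean, 7.86 on the log2 scale, and the fewest genes above background, 293. Il4ra was lowest in DMSO 4, at 9.37 against 9.69 to 9.75 in the other DMSO samples, and without that sample its difference was 0.15. Il5ra was highest in DMSO 4, at 6.18 against 4.53 to 4.70 in the other DMSO samples, and without that sample its difference was 1.07.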

How the results depend on the processing

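No gene passed the adjusted threshold under any of the 20 settings of the fit, members included. For the exact permutation test this was close to fixed in advance, since its smallest possible p was 0.0286. The members' adjusted p ranged from 0.127 to 1. Unadjusted counts over all genes, 20 in the main setting, were 196 as deposited, 12 with background subtracted, 40 with no filter, 4 among genes above background in all 8 samples, and 11 to 28 when 1 sample was left out (12 without DSHN 1, 11 without DSHN 3). With a replicate block there were 11. The shared numbers did not pair the samples (correlations of deviations from -0.29 to 0.14, and 0 of 4 DSHN samples closest to their own number). Members at an unadjusted p under 0.05 were 2 as deposited (Il21r and Il1rap), 1 with no filter (Il2), and 0 to 1 when 1 sample was left out (Il6 without DMSO 1). Members higher in DSHN were 0 as deposited, 19 of 23 with no filter and 3 of 6 above background in all samples. Their median difference was -1.67 as deposited, 0.41 with Tubb5 left out of the scaling, 0.55 with no filter, 0.07 with background subtracted, 0.005 among genes above background in all 8 samples and -0.039 to 0.275 when 1 sample was left out.

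Of 196 alternative values for the 10 members with a difference, 181 kept their direction and 15 turned. The filters, variance models, permutation test and replicate block leave each difference unchanged. The 181 thus include values that could not have turned. As deposited, Il6 was at -1.66, Il12b -1.56, Il23a -1.46, Il4ra -1.67, Il5ra -1.21 and Il10ra -1.79, by the shift common to all genes. With Tubb5 left out, Il6ra was at 0.0675 and Il17ra at 0.0525. Without DSHN 1 and DMSO 1, Il5ra was at -0.20 and Il1rap at 0.0825. Leaving out 1 sample gave -0.0058 to 0.56 for Il6, -0.080 to 0.67 for Il12b, -0.039 to 1.25 for Il5ra, -0.047 to 0.22 for Il10ra and -0.53 to 0.115 for Il1rap. The cause was not tested. The 6 members above background in all samples were 6 under both other limits and 8 without DSHN 1, an alternative chosen after seeing the data. Differences of genes near background are limited by depth, most of all in DSHN 1.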

Other observations

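Il2 was the member below background in all 8 samples whose recovered counts did not overlap between groups, with 11, 6, 13 and 10 counts in DSHN and 3, 5, 4 and 5 counts in DMSO. All of these lay under the limits of 17.9 to 40.1 counts in DSHN and 21.0 to 26.9 counts in DMSO. It was singled out after its values were seen, and it did not pass the low-value filter of the comparison. Among the 554 genes that did pass, scaled levels did not overlap for 3.25%. The share among genes under the filter was not counted. With no filter Il2 had an unadjusted p = 0.0285 and an adjusted p = 0.769 in limma, where 40 of 754 genes had an unadjusted p under 0.05. No size is given, since every value was at background.

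Il3 and Il25 had their highest counts in DSHN 1 and DSHN 3, at 29 and 23 for Il3 and 11 and 17 for Il25. The other DSHN samples had 10 and 10 counts of Il3 and 2 and 4 of Il25, and DMSO samples 6 to 17 counts of Il3 and 4 to 7 of Il25. All lay under each sample's limit.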
